A study of Mus musculus with 2 samples.

Results

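The transcripts described here belong to 44 genes of the cell division cycle, taken as a list by gene name from 18193 genes named on the array. They were 12 replication genes, 19 mitosis genes, 8 cyclins and kinases of the G1 and S phases, 3 inhibitors of cyclin-dependent kinases (CDKs), the checkpoint kinase gene Chek1 and the transcription factor gene Mybl2. Each gene was read through every probe set (a group of short oligonucleotides against 1 transcript) that the platform annotation gives to it alone. There were 104 such probe sets for 43 genes, and none for Ccnb1, which encodes cyclin B1 and was not analysed here.

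RNA came from E14.5 mouse urogenital ridges without gonads. The ridge carries the Müllerian duct, which becomes oviduct and uterus in females, and the Wolffian duct, which becomes epididymis and vas deferens in males. The Misr2-/- pool was homozygous for a deletion of Misr2, which encodes the type II receptor of the testis hormone MIS (Müllerian inhibiting substance), and per the labels did not respond to MIS. The Misr2+/- pool was heterozygous for the deletion, and per the labels did respond, so that neither pool was wild type. Both pools were a mix of C57Bl/6 and 129SVEV, held about 100 ridges each, and had been scored for genotype with a YFP reporter; the promoter behind that reporter and the sex of the embryos are not stated in the labels. Each pool was hybridised to 1 array, which leaves no replicate of either genotype, and no difference below was tested. The number of arrays limits the precision.

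A dividing cell first duplicates its genome and then parts the copies. In G1, D-type cyclins with CDK4 or CDK6 and then E-type cyclins with CDK2 release E2F transcription factors from the retinoblastoma protein, and E2F switches on genes for licensing origins, copying DNA and making deoxynucleotides. A later wave of genes for mitosis is switched on in G2, largely through promoters with a CHR element (cell cycle genes homology region) read by MuvB complexes, often beside boxes bound by NF-Y. The CDK inhibitors p21, p27 and p57 hold the cycle back. In the urogenital ridge at this age, mesenchyme and duct epithelium are both growing, and in males the Müllerian duct regresses under MIS.

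The promoters of the replication and the mitosis genes carried different short motifs. The choice of genes did not use them, but the motifs searched are those described above for such genes. Sequences were RefSeq windows of 300 bases on GRCm38.p6, from 250 bases before to 50 after a gene's start, and 37 of the 44 genes had at least 1; the promoters of Ccna2, Ccnd1, Ccnd2, Ccne2, Mcm4, Aurkb and Cdkn1c were not analysed here. The motifs searched on both strands were E2F (TTTCCCGC, TTTCGCGC, TTTGCCGC or TTTGGCGC), CHR (TTTGAA) and the NF-Y box (CCAAT). The 5 windows printed here were chosen because they show both promoter types: Espl1 had the highest value of the mitosis genes, Ttk the highest single probe set of all 43 genes, Cdk1 was the 1 member with both an E2F and a CHR match, and Mcm6 and Cdc6 had E2F matches without CHR. Capitals mark the matches to any of the 3 motifs.
Espl1, separase, chr15:102296043-102296342, plus strand: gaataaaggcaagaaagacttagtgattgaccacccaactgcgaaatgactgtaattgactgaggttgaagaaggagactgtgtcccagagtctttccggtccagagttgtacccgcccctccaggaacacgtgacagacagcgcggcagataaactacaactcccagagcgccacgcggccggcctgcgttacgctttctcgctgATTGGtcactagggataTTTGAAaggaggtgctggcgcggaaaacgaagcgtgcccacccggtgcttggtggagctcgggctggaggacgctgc
Ttk, the checkpoint kinase MPS1, chr9:83834439-83834738, plus strand: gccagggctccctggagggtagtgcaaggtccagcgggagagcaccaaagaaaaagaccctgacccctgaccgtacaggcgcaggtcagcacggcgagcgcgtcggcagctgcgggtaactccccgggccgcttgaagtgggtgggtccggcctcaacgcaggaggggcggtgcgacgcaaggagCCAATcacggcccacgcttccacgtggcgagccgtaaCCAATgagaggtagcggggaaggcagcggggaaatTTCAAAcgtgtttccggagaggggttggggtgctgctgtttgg
Cdk1, the mitotic CDK, chr10:69352863-69353162, minus strand: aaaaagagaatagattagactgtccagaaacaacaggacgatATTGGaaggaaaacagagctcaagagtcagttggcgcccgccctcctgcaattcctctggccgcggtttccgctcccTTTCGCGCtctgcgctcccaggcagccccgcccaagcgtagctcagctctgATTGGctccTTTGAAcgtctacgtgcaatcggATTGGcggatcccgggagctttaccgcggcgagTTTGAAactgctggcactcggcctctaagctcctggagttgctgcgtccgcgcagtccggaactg
Mcm6, a helicase subunit, chr1:128359656-128359955, minus strand: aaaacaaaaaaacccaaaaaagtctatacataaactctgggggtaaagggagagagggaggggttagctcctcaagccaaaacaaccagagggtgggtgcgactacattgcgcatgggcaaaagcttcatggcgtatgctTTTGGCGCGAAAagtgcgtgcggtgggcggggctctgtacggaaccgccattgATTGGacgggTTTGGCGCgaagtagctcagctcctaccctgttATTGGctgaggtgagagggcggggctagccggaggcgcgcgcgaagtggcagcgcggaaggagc
Cdc6, the helicase loader, chr11:98907901-98908200, plus strand: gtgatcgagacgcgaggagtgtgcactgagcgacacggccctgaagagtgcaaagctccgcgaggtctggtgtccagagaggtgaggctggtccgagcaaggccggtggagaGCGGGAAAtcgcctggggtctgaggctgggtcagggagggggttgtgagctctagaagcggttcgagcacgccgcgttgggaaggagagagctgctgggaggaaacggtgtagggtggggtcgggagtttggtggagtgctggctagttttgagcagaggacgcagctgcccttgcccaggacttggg

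In Espl1 the CHR match began at position -27 relative to the start, with an NF-Y box at -44. Ttk had its CHR match on the other strand at position 8 and NF-Y boxes at -65 and -28. Cdk1 held 2 CHR matches, at -71 and -15, an E2F match at -131 and 3 NF-Y boxes. Mcm6 held 3 E2F matches, of which those at -110 and -106 overlap on opposite strands, and Cdc6 held 1, at -138.

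Over the whole list, a CHR match was found in 12 of 17 promoters of mitosis genes (70.6%) and in 2 of 12 promoters of replication genes (16.7%), against 17.9% of all 32851 promoters of the same length. E2F matches showed the opposite order, with 5 of 12 promoters of replication genes (41.7%, those of Mcm3, Mcm5, Mcm6, Mcm7 and Cdc6) and 1 of 17 of mitosis genes (5.88%), against 2.26% of all. NF-Y boxes were frequent in both, at 83.3% and 88.2%, against 37.4% of all promoters. Every mitosis gene promoter with a CHR match also held an NF-Y box, a pair found in 6.95% of all promoters. Of 9224 measured genes with a promoter, members left out, an E2F match was found in 444, CHR in 1285 and NF-Y boxes in 3941. The pair of CHR and NF-Y box was found in 501 of them. In 11 of the 12 mitosis genes with a CHR match, 1 such match began within 50 bases of the start. Mki67, with matches at -116 and -98, was the exception. This position was not counted over all promoters, and the zone is a large part of each 300-base window. CHR and NF-Y box matches share bases in 47 of all promoters, and an E2F match shares bases with either of the others in 5. A match is a run of letters and not a measured binding site.

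**Figure D1:**
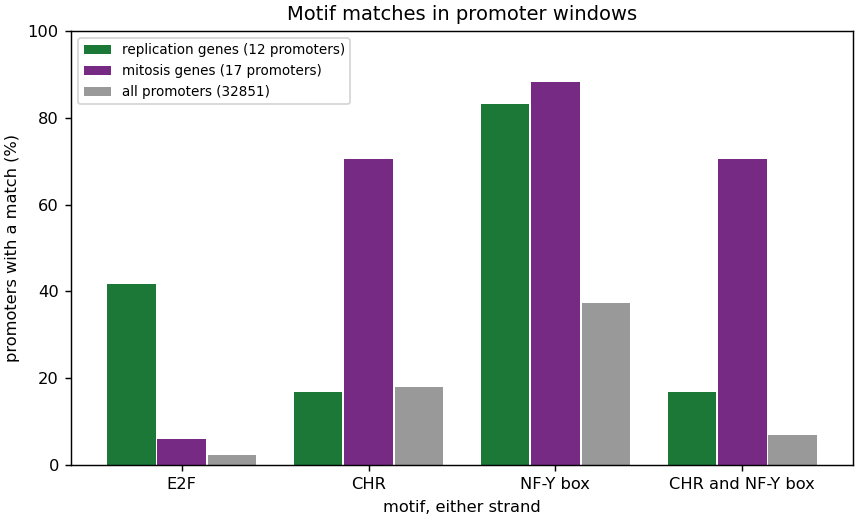
Share of promoter windows (y axis, percent) that hold a match to each motif on either strand (x axis) for replication genes, mitosis genes and all RefSeq promoters; bars start at 0. CHR matches stand at 70.6% for mitosis genes against 17.9% of all promoters, and E2F matches at 41.7% for replication genes against 2.26% of all.

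**Figure D2:**
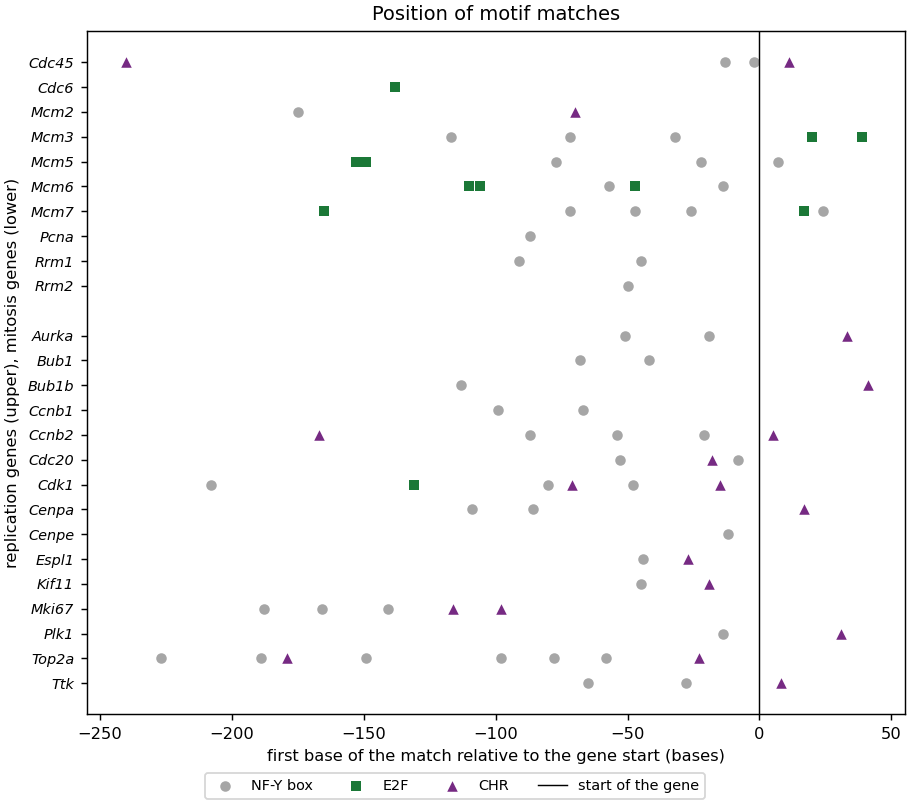
First base of each motif match relative to the gene start (x axis, bases) in replication genes (upper rows) and mitosis genes (lower rows) with at least 1 match; marker shapes give the motif. In 11 mitosis genes 1 CHR match begins within 50 bases of the start, a position that was not counted over all promoters.

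Signals are linear intensities as deposited. Median signals were 139.4 on the Misr2-/- and 116.5 on the Misr2+/- array, a shift of 0.26 on the log2 scale. Unless stated otherwise, a log2 difference is Misr2-/- minus Misr2+/- with this shift taken off. Each array's median also served as a floor: a probe set was measured where at least 1 signal reached it, and 89 of the 104 probe sets were. All 43 genes had at least 1 measured probe set, each gene was represented by its brightest, and all 43 of these had both signals above the floor. For scale, the log2 differences of the 2 brightest probe sets of 1 gene scattered with an SD of 0.23 per probe set over 5264 genes and of 0.13 over the 30 members with at least 2, which leaves out any variation between pools. Amhr2, the annotation's name for Misr2, had signals of 10.2 in the Misr2-/- and 1549.6 in the Misr2+/- pool, at least 13.3-fold lower in the Misr2-/- pool by its brightest probe set. Its 3 measured probe sets ran from -3.73 to -0.64, and where the deletion lies relative to them is not stated in the labels.

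Most replication and mitosis genes, like most genes on the arrays, differed little between the pools. Of the 43 measured members, 38 lay within 0.32 of 0 on the log2 scale (the fold threshold used here), where 85.3% of all measured genes did. Of the 43, 37 lay within the probe set SD of 0.23, and none differed by 1.5-fold in either direction, where 2.97% of 11432 measured genes differed 1.5-fold and 0.455% differed 2-fold. The median log2 difference was 0.07 over members and 0.04 over all measured genes. In all, 33 of 43 members (76.7%) were above 0, where 57.7% of all measured genes were. Scaled to 18 hybridisation spike probe sets instead, 4 of 43 were above 0, where 6.25% of all measured genes were. The median difference turned to -0.33 on that scale, where that of all genes was -0.37. The distance between the 2 medians was 0.04 under either scaling. Higher in the Misr2-/- pool by at least 0.32 were 4 members, Espl1, Ccne2, Mybl2 and Aurkb (10.3% of all measured genes), and 1, Cdkn1c, was lower by as much (4.31% of all). At 4 in 43, the share of higher members was near the background of all measured genes together, but not within each group of like signal, as given next. In bulk RNA, fewer dividing cells and less of a transcript per cell cannot be told apart.

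The shares differed by signal strength. When the measured genes were divided into 3 groups of equal size by mean signal, 28 members fell in the brightest, and 18 of these (64.3%) were above 0, where 50.6% of all genes in that group were. The middle group held 13 members, all above 0, where 60.7% of its genes were, and the dimmest held Tyms and Mybl2, both above 0, where 61.8% were. Higher by at least 0.32 were 0 of the 28 members in the brightest group, where 4.49% of its genes were. In the middle group 3 of 13 members were, against 9.82% of its genes, and in the dimmest 1 of 2, against 16.7%. Scaled to the spikes, these counts turn with the rest.

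**Figure D3:**
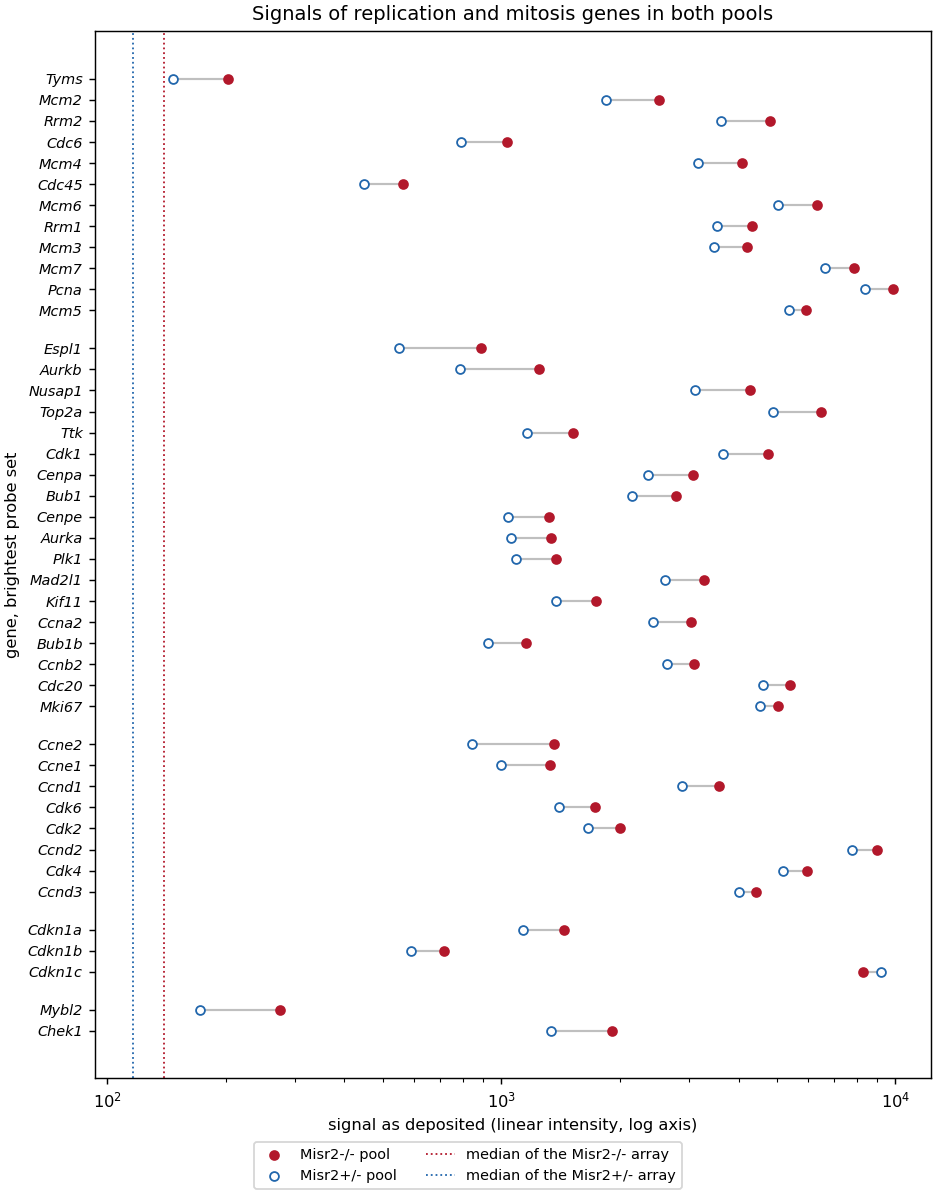
Signal as deposited (x axis, linear intensity on a log axis) of the brightest probe set of each of 43 genes, with Misr2-/- as filled and Misr2+/- as open points and the array medians as dotted lines. Cdkn1c is the 1 gene whose Misr2-/- point lies left of its Misr2+/- point; a shift of 0.26 on the log2 scale applies to all genes.

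Among replication genes, the 6 subunits of the MCM2-7 helicase, which is loaded at origins and unwinds DNA ahead of the fork, differed little. Mcm2 had signals of 2513.8 in the Misr2-/- and 1849.3 in the Misr2+/- pool, a log2 difference of 0.18 with 0.12 for its other probe set. Mcm4 had signals of 4078.6 in the Misr2-/- and 3162 in the Misr2+/- pool, a difference of 0.11. For Mcm6 the signals were 6311.5 in the Misr2-/- and 5029.4 in the Misr2+/- pool, a difference of 0.07. The other 3 subunits lay on both sides of 0: Mcm3 at 0.02, Mcm7 at -0.01 and Mcm5 at -0.12. Further probe sets widened this range, since 1 each of Mcm4 (0.46), Mcm6 (0.33) and Mcm7 (0.33) was higher by at least 0.32, while those of Mcm3 ran from -0.26 to 0.06. All 3 of those higher probe sets carry identifiers of the x class, which mark probes that may bind other transcripts. Over all genes, probe sets of that class had a median of 0.09, and those with plain identifiers one of 0.01.

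The other replication genes were similar. Cdc6, which loads the helicase, gave 1031.1 in the Misr2-/- and 789.3 in the Misr2+/- pool, a log2 difference of 0.13. Cdc45, which activates the helicase, gave 564.7 in the Misr2-/- and 447.8 in the Misr2+/- pool, 0.08. Pcna, the sliding clamp of the DNA polymerases, gave 9843.8 in the Misr2-/- and 8364 in the Misr2+/- pool, and its difference of -0.02 was among the smallest. Of the enzymes of deoxynucleotide synthesis, Rrm2 and Tyms leaned to the Misr2-/- pool, though not on the spike scale. Rrm2, the regulated subunit of ribonucleotide reductase, had 3 probe sets at 0.15, 0.22 and 0.23, with brightest signals of 4817.7 in the Misr2-/- and 3618.2 in the Misr2+/- pool. Rrm1, the large subunit, stood at 0.03 and -0.03. Tyms, thymidylate synthase, had the highest difference of the group at 0.20, at signals of 202.1 in the Misr2-/- and 147.1 in the Misr2+/- pool, close to the floors. Altogether 9 of 12 replication genes were above 0, where 57.7% of all measured genes were. Their median difference was 0.07 (-0.33 on the spike scale, where 0 of 12 were above 0), against 0.04 over all measured genes. None of the 12 reached the threshold of 0.32.

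Mitosis genes had the same median difference to within 0.01. It was 0.08 over 18 measured genes, and 15 were above 0 (-0.32 and 2 genes against the spikes). Over all measured genes the median was 0.04, and 57.7% were above 0. The most used marker of proliferating cells, Mki67, had signals of 5031.9 in the Misr2-/- and 4532.3 in the Misr2+/- pool, a log2 difference of -0.11. Top2a, the topoisomerase that untangles sister chromatids, had signals of 6470.9 in the Misr2-/- and 4879.3 in the Misr2+/- pool, 0.15, and its dimmer probe set stood at 0.35. These 2 markers, both far above the floor, lay on opposite sides of 0.

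The cyclin and kinase engine of mitosis differed by at most 0.12 in its brightest probe sets, Aurkb apart. Cdk1 had signals of 4754.3 in the Misr2-/- and 3645.7 in the Misr2+/- pool, 0.12. Its partner Ccna2, cyclin A2, stood at 0.06 and -0.02, and Ccnb2, cyclin B2, at -0.03, with signals of 3076 in the Misr2-/- and 2627.4 in the Misr2+/- pool. Plk1, a kinase of spindle assembly and cytokinesis, stood at 0.07, and Aurka, the kinase of spindle poles, at 0.08. Aurkb, the kinase of the chromosomal passenger complex that corrects kinetochore attachment, was among the 4 higher members. Its signals were 1249.1 in the Misr2-/- and 785.8 in the Misr2+/- pool, 1.33-fold higher at a difference of 0.41, but its other probe set, nearly as bright at 1112.1 in the Misr2-/- and 869 in the Misr2+/- pool, stood at 0.10. The median of these probe sets, 0.25, is under the threshold, and both carry identifiers of shared or cross-hybridising sequence.

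Genes of the spindle checkpoint and the kinetochore lay close together in their brightest probe sets and further apart in dimmer ones. Bub1 (0.11), Bub1b (0.06) and Mad2l1 (0.07), which delay anaphase until all chromosomes are attached, and Cdc20 (-0.04), the anaphase activator they hold back, lay close to 0 in their brightest probe sets. A dimmer probe set of Cdc20, at 327.8 in the Misr2-/- and 205.8 in the Misr2+/- pool, stood at 0.41. Cenpa, the histone variant that marks centromeres, stood at 0.12, with signals of 3062.3 in the Misr2-/- and 2351.5 in the Misr2+/- pool. Ttk, the kinase that starts the checkpoint, stood at 0.13 for its brightest probe set and at 0.55 for its other, whose signals were 406.4 in the Misr2-/- and 232.2 in the Misr2+/- pool. Of the motor genes Cenpe and Kif11, 1 dimmer probe set each went the other way, at -0.35 and -0.51. The brightest of these genes stood at 0.09 and 0.07, and a further one of Kif11 at 0.13. Nusap1, a spindle microtubule protein, was higher in both probe sets, at 0.21 and, with a Misr2+/- signal under the floor, at least 0.34.

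Espl1, the gene of separase, which cuts cohesin to part sister chromatids, had the highest difference of all 43 members. Its single probe set had signals of 889.6 in the Misr2-/- and 549.4 in the Misr2+/- pool, a log2 difference of 0.44 or 1.35-fold. It is also the 1 member on chromosome 15, the chromosome of Amhr2, with 5 protein-coding genes between them in the RefSeq table; this position was looked up after the value had been seen. In order from Espl1 to Amhr2 these genes were Pfdn5 (0.06), Myg1 (0.16), Aaas (0.28), Sp7 (at most -1.23, with the Misr2-/- signal under the floor) and Sp1 (-0.08), so that 3 of 5 were above 0, where 57.7% of all measured genes were. Beyond Espl1 stood Mfsd5 (0.11), Rarg (-0.13) and Zfp740 (-0.13), and beyond Amhr2 stood Prr13 (0.23), Pcbp2 (-0.14) and Map3k12 (-0.12). Whether the position beside the deleted gene, in embryos of mixed strain, has a part in the value of Espl1 was not tested.

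**Figure D4:**
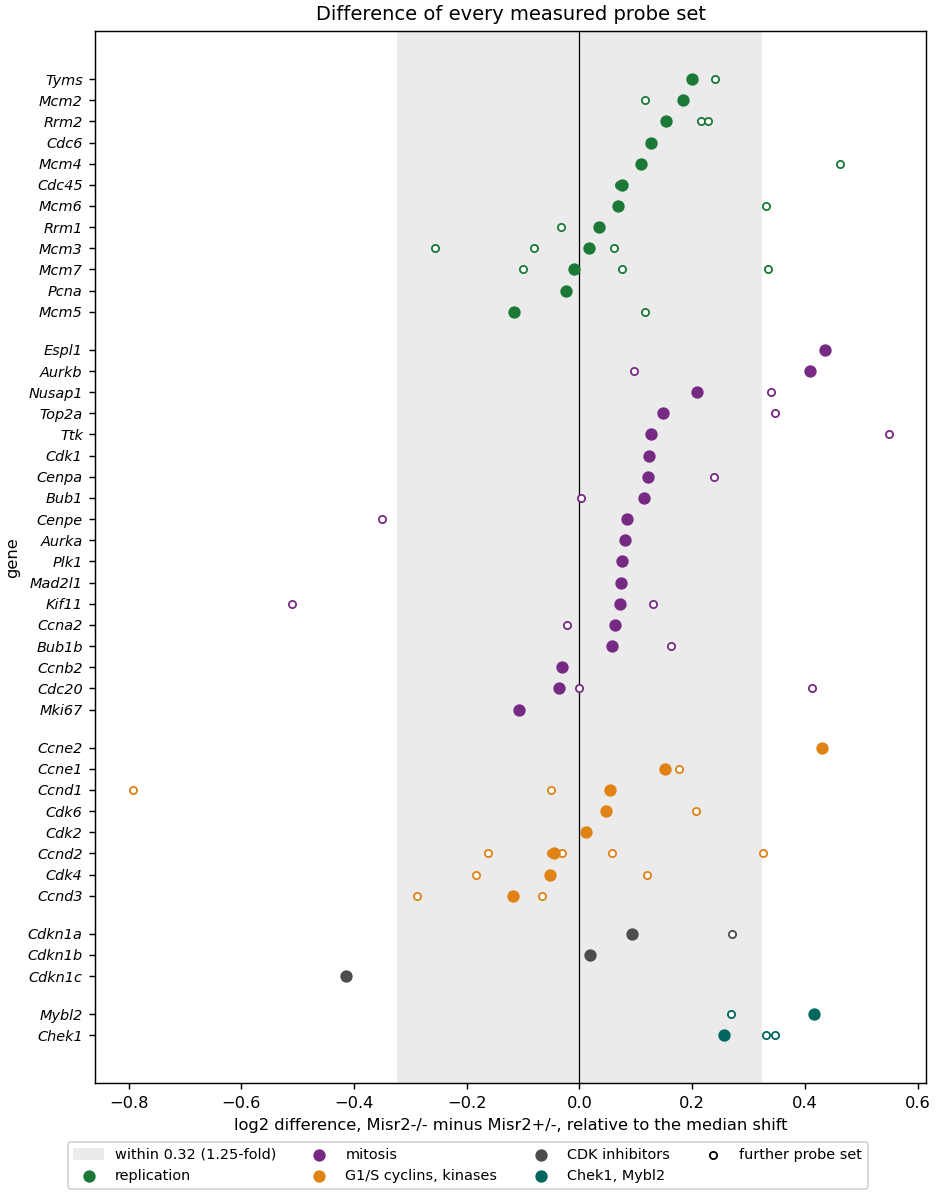
Log2 difference, Misr2-/- minus Misr2+/- relative to the median shift (x axis), of all 89 measured probe sets by gene (y axis), ordered within each role; filled points are the brightest probe set, open points the others, and grey covers 0.32 to each side of 0. Filled points of 38 genes lie in the grey band, Espl1, Ccne2, Mybl2 and Aurkb lie right of it and Cdkn1c left; against the hybridisation spikes 0 would sit at 0.40.

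Of the 8 cyclins and kinases of G1 and S, 1, Ccne2, reached the threshold of 0.32 in its brightest probe set. The D-type cyclins, which link growth signals to the cycle, lay near or below 0 in their brightest probe sets, though above 0 as deposited: Ccnd2 stood at -0.04, with 9000.7 in the Misr2-/- and 7759.9 in the Misr2+/- pool, and Ccnd3 at -0.12 with all 3 probe sets below 0. The 7 probe sets of Ccnd2 ran from -0.16 to 0.33, the highest with signals of 364.8 in the Misr2-/- and 243.2 in the Misr2+/- pool. Ccnd1, a WNT and growth factor target in many tissues, had probe sets at 0.05, -0.05 and -0.79. The lowest of these, at 774.4 in the Misr2-/- and 1120.4 in the Misr2+/- pool, was also the lowest of all 89, while the brighter 2 gave 3574 and 2677.1 in the Misr2-/- pool, against 2875.2 and 2316.9 in the Misr2+/- pool. E-type cyclins start S phase. Ccne2 had signals of 1362.5 in the Misr2-/- and 845 in the Misr2+/- pool, 1.35-fold higher at 0.43 with 1 probe set, and 0.03 on the spike scale. Ccne1 stood at 0.15 and 0.18, within the probe set SD of 0.23, and its brightest probe set at -0.25 on the spike scale. Their partner Cdk2 stood at 0.01, and Cdk4 and Cdk6, the partners of D-type cyclins, at -0.05 and 0.05. The median of the 8 genes was 0.03 (0.29 as deposited and -0.37 against the spikes). Of the 8, 5 were above 0, where 57.7% of all measured genes were.

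Of the CDK inhibitors, Cdkn1c stood apart. It encodes p57, an imprinted inhibitor expressed in many embryonic tissues that leave the cycle. Its signals were 8276.9 in the Misr2-/- and 9220 in the Misr2+/- pool, 1.33-fold lower at -0.41 with 1 probe set, and it was the 1 member whose signal was lower in the Misr2-/- pool as deposited, at -0.16. Cdkn1c stayed below 0 under the 5 alternative scalings, from -0.82 against the spikes to -0.16 as deposited. The floor, filter and probe set settings left it at -0.41. They could hardly move it, since its 1 probe set is plain and far above the floor. Cdkn1a, which encodes p21 and is a p53 target, stood at 0.09 with 1446.7 in the Misr2-/- and 1134 in the Misr2+/- pool, and Cdkn1b, which encodes p27, at 0.02.

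Chek1 and Mybl2 were higher in every measured probe set. Chek1, the kinase that halts the cycle when forks stall, had 3 probe sets at 0.26, 0.33 and 0.35, with brightest signals of 1907.7 in the Misr2-/- and 1334.2 in the Misr2+/- pool. Mybl2, which encodes B-Myb, a partner of MuvB at promoters of the late cycle, had signals of 273.9 in the Misr2-/- and 171.6 in the Misr2+/- pool, 1.33-fold higher at 0.42, and its dimmer probe set, with a Misr2+/- signal under the floor, stood at or above 0.27. Mybl2 was near the floor, and with the floor at the 60th percentile its value was 0.12. Scaled to the spikes, Chek1 turned to -0.15 and Mybl2 to 0.01.

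Probe sets of 1 gene offered a check within the arrays. Of the 30 members with at least 2 measured probe sets, 11 (36.7%) had values on both sides of 0, against 55.3% of 5264 genes. The median range between a gene's lowest and highest probe set was 0.19 for members and 0.29 for all such genes. No comparison in this paragraph was matched for signal or for number of probe sets, and 28 members lay in the brightest signal group. The second brightest probe sets, which did not represent the gene in the counts above, were above 0 in 23 of 30 members (76.7%) with a median of 0.12, against 49.4% and a median of 0 over all genes. Over all 89 measured probe sets of members, 14 (15.7%) were higher by at least 0.32 and 4 (4.49%) lower by as much in the Misr2-/- pool, against 10.7% and 7.95% of all 20223 measured probe sets with 1 gene. These probe sets share the same 2 RNA pools, so they repeat the hybridisation readout and not the biological comparison, and scaled to the spikes a value below 0.40 turns negative.

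The rest of the division machinery was read from 9 further lists of 216 genes, of which 200 were measured. Their median log2 difference was 0.15, with 153 of 200 above 0 (76.5%, -0.26 and 19 genes against the spikes). All measured genes had a median of 0.04, and 57.7% of them were above 0, the share to set beside each list below. Higher in the Misr2-/- pool by at least 0.32 were 30 of them and lower was 1, against the 10.3% and 4.31% of all genes. In the brightest of the 3 signal groups 69 of 100 such genes were above 0, against 50.6%.

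Genes of the replication fork were the most one-sided of the 9 lists under the median scaling. Of 31 measured genes 29 were above 0 (2 against the spikes), where 57.7% of all measured genes were. The median difference of the list was 0.17 (-0.24 on the spike scale). Prim2, a primase subunit, stood at 0.54 with 1486.8 in the Misr2-/- and 855.8 in the Misr2+/- pool, but its other probe set at 0.07; Uhrf1, which helps copy DNA methylation, stood at 0.42 and -0.04, and Rnaseh2a, an RNase subunit, at 0.34. Origin recognition and licensing genes had a median difference of 0.19 (-0.22 on the spike scale), with 17 of 21 above 0. Gins2, a subunit of the active helicase, stood at 0.45 and 0.26 with 1649 in the Misr2-/- and 1011.3 in the Misr2+/- pool for the first, Dbf4, the activator of the CDC7 kinase, at 0.35, and Recql4, a helicase, at 0.33. Nucleotide supply genes had a median difference of 0.14 (-0.26 on the spike scale), with 7 of 10 above 0; Dck, deoxycytidine kinase, stood at 0.41 with 3 probe sets from -0.05 to 0.54, and Shmt1, a folate cycle enzyme, at 0.35 with 4 from -0.27 to 1.04. Dut, the dUTPase, stood at 0.29 and 0.41.

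Lists of mitosis were similar. Kinetochore and checkpoint genes had a median difference of 0.18 (-0.22 on the spike scale), with 24 of 28 above 0, and Nuf2, a subunit of the NDC80 complex that holds microtubules, stood at 0.48 with 818.7 in the Misr2-/- and 491.1 in the Misr2+/- pool. Of the centromere protein genes, Cenpp stood at 0.47 and 0.20 and Cenpl at 0.37. Spindle motor and cytokinesis genes had a median difference of 0.15 (-0.25 on the spike scale), with 23 of 29 above 0. Kif18a, a kinesin that aligns chromosomes, stood at 0.71, 1.63-fold higher, with 881.2 in the Misr2-/- and 451.3 in the Misr2+/- pool; Ect2, which places the cleavage furrow, stood at 0.51 and the centrosomal kinase gene Nek2 at 0.48, the highest of 3 probe sets from 0.15. Cohesin, condensin and anaphase complex genes were close to all genes, with 18 of 33 above 0 and a median difference of 0.05 (-0.36 on the spike scale). In that list Esco2, which acetylates cohesin, stood at 0.59, Anapc5, of the anaphase complex, at -0.28 with 6 probe sets from -0.36 to 0.06, and Wapl, which releases cohesin, at 0.27 with 3 from -0.11 to 0.27.

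Regulators varied more. E2F, Rb and DREAM factors had a median difference of 0.13 (-0.28 on the spike scale), with 18 of 23 above 0. The activator gene E2f2 stood at 0.81 with 290.4 in the Misr2-/- and 138.6 in the Misr2+/- pool, but its other probe set at -0.09, and E2f5, a repressor, ran from -0.91 to 0.55 over 3 probe sets. Lin9, a MuvB subunit, stood at 0.51 with 1 probe set. Other CDK inhibitors and arrest genes had a median difference of 0.16 (-0.24 on the spike scale), with 7 of 12 above 0; Gas2 stood at 0.47, Tob2 at 0.36 with 5 probe sets from 0.02 to 0.47, and Btg2 at -0.26 with its other probe set at 0.32. Targets of p53 had a median difference of 0.24 (-0.17 on the spike scale), with 10 of 13 above 0, and the highest were Perp (0.75), Pmaip1 (0.56) and Sesn1 (0.49). Perp had signals of 266 in the Misr2-/- and 132.3 in the Misr2+/- pool, and Pmaip1 had 224.7 in the Misr2-/- and 127.6 in the Misr2+/- pool, both near the floor. Sesn1 was well above it, at 2732.6 in the Misr2-/- and 1620.8 in the Misr2+/- pool, but its 3 probe sets ran from -0.14 to 0.49.

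**Figure D5:**
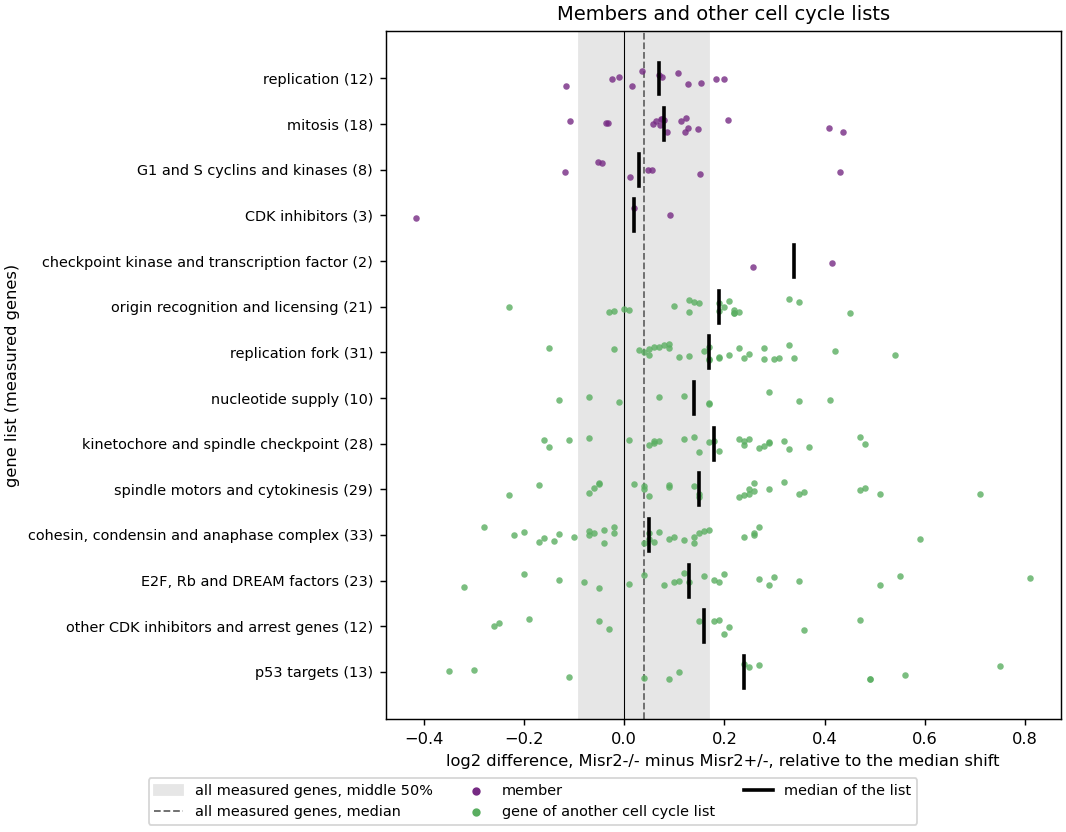
Log2 difference, Misr2-/- minus Misr2+/- relative to the median shift (x axis), of each measured gene by list (y axis, number measured in brackets); black bars are medians and grey is the middle 50% of all measured genes. Replication and mitosis members have medians of 0.07 and 0.08 and the further replication fork list one of 0.17; against the hybridisation spikes these medians are -0.33, -0.32 and -0.24.

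Members were also set apart by promoter motif, with small distances between the medians. The 14 measured members with a CHR match had a median of 0.08 and the 22 without one of 0.07. With an E2F match the median was 0.02 over 7 members, and without one 0.08 over 29. Outside the members, 444 measured genes with an E2F match had a median of 0.05 and 501 with both CHR and NF-Y box one of 0.03, against 0.04 over 9224 measured genes with a promoter; with the spikes as the scale, all these medians lie 0.40 lower.

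Marker lists of other cell types differed between the pools to unequal extents. Of all measured genes 57.7% were above 0, and 92.9% as deposited, the shares to set beside each list here. A gene measured through 1 pool alone can only lie on that pool's side of 0 under the median scaling. Duct epithelium markers were higher in the Misr2-/- pool, with 10 of 11 above 0 and a summed signal of 19835.5 in the Misr2-/- and 13803.4 in the Misr2+/- pool, 0.26 on the log2 scale beyond the median shift (a median of 0.24, which is -0.16 against the spikes). Germ cell markers were below 0 in 6 of 7, where 3 of 7 were above 0 as deposited. Their summed signals were 1263.2 in the Misr2-/- and 1668.1 in the Misr2+/- pool. Ddx4, Pou5f1 and Dnd1 had Misr2-/- signals under the floor, so that their place below 0 was fixed. Pou5f1, counted as below, stood at 0.0 when rounded. Fetal testis markers were below 0 in 8 of 9, where 3 of 9 were above 0 as deposited. Their summed signals were 2774.8 in the Misr2-/- and 3050.4 in the Misr2+/- pool. Dhh and Defb19 had Misr2-/- signals under the floor, at 100.3 and 119.3, so that their place below 0 was fixed. Amh, the defining Sertoli cell product, stayed below each array's floor, at 5.5 in the Misr2-/- and 19 in the Misr2+/- pool. Other markers of that list were above both floors. Among them, Aard had 673.4 in the Misr2-/- and 820.6 in the Misr2+/- pool, and Cyp17a1 had 297.1 in the Misr2-/- and 376.6 in the Misr2+/- pool. Fetal ovary markers were below 0 in 6 of 8 (3 of 8 as deposited), with summed signals of 5221 in the Misr2-/- and 5120.2 in the Misr2+/- pool. Macrophage markers were below 0 in 9 of 11 (2 of 11 as deposited), with summed signals of 10750.8 in the Misr2-/- and 9816.7 in the Misr2+/- pool. Erythroid markers were below 0 in 3 of 6 (0 of 6 as deposited), with summed signals of 16551.1 in the Misr2-/- and 14388 in the Misr2+/- pool. Klf1, with a Misr2+/- signal under the floor, could only lie above 0. Of 12 kidney markers 4 were measured, with summed signals of 8326.1 in the Misr2-/- and 6508.3 in the Misr2+/- pool. The brightest were Wt1, at 4640.4 in the Misr2-/- and 3356.9 in the Misr2+/- pool, and Podxl, at 3243.1 and 2785.4. The kidney progenitor marker Six2 stayed under each array's floor, at 26.3 in the Misr2-/- and 69.2 in the Misr2+/- pool. Ridge mesenchyme markers, Amhr2 included, were below 0 in 8 of 11 (3 of 11 as deposited), with summed signals of 42090.6 in the Misr2-/- and 39762.9 in the Misr2+/- pool. Meox1, counted as below, stood at 0.0 when rounded. Amhr2, the deleted gene, had a Misr2-/- signal under the floor, and Tbx18, which lay above 0, a Misr2+/- signal under it. The Y-linked genes Eif2s3y and Uty were measured in both pools, at 1541.9 and 855.9 in the Misr2-/- and at 1199.7 and 548.2 in the Misr2+/- pool. Xist, of the same sex-linked list, stayed under each array's floor, at 121.4 in the Misr2-/- and 61.5 in the Misr2+/- pool. The part of cell makeup in the differences of the cycle genes was not tested.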

How the data were processed

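Signals came from the deposited value table of 2 Affymetrix arrays, 1 per pool, as 1 linear intensity per probe set; GCOS and MAS5 are named per the submitters' processing notes without a version or role, and no source used here states how the deposited intensities were scaled. A second deposited table, the authors' own comparison, gives a signed fold (taken as a score) for 739 probe sets, and 0 of the 104 member probe sets are among them. Groups follow the genotype label. Of 45101 probe sets, 64 controls were left out, 34945 had 1 gene symbol, 932 several and 9160 none. Per the labels, RNA was amplified from the 3' end and labelled with biotin.

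Values were computed with Python 3.11.15, numpy 2.4.6 and pandas 2.3.3 as described where they first appear; the steps were tested on simulated data. The 44 genes, the further lists and the thresholds were chosen with earlier results of these data known. Named were all members and, of each further list, the 3 genes with the largest absolute difference. With 1 array a group there is no test, p-value or standard error. Alternatives were 5 scalings, 3 floors, a pseudocount of 16 without a floor, no filter, the median of probe sets, plain identifiers only, and thresholds of 1.15-fold and 1.5-fold. RefSeq promoters are of GRCm38.p6; no source used here names a build for the array.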

Additional observations from a re-analysis of the deposited data

How the results depend on the processing

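The signs of small differences depended on the scale between the arrays. As deposited, the medians were 0.33 for replication genes, 0.34 for mitosis genes, 0.29 for G1 and S cyclins and kinases and 0.33 for all members. On that scale 25 of 43 members were higher by at least 0.32 and 0 lower, where 44.2% and 0.901% of all measured genes were. Against the hybridisation spikes the medians were -0.33, -0.32, -0.37 and -0.33 in the same order. Above 0 were then 0 replication and 2 mitosis genes, where 6.25% of all measured genes were. On the spike scale 0 members were higher by at least 0.32 and 24 lower, where 0.848% and 59.9% of all measured genes were. These shifts apply to all genes alike by construction. At a 1.5-fold threshold 0 members were higher and 0 lower. Under the 10 other settings of scaling, floor, filter and probe set choice, the median of all members stayed between 0.04 and 0.08. In these settings 3 to 5 members were higher by at least 0.32, where 5.96% to 12.3% of all genes were. With the floor at the 60th percentile Mybl2 left that count, and it was no longer measured at the 75th. No member differed 2-fold in any of the 13 settings. Without shared identifiers 39 members were measured, and Aurkb was not among them. No paired analysis was possible because each group has 1 array. Values near the floor, such as those of Tyms and Mybl2, are limited by their distance from background.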
